A study of Mus musculus with 3 samples.

Results

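Monocytes are circulating phagocytes that enter inflamed tissue and release chemokines, small secreted proteins that attract other leukocytes through receptors on their surface. The 10 chemokine ligand genes described here, Ccl2, Ccl7, Ccl5, Ccl9, Ccl6, Ccl3, Ccl4, Cxcl2, Cxcl10 and Cxcl16, come from the 21851 protein-coding genes of the annotation that have a protein-coding transcription start site (TSS). They were taken by name and not by a threshold on a measured value, with earlier results of these data known. Open chromatin was mapped with DNase-seq, in which the nuclease DNase I cuts accessible DNA. The 3 libraries came from primary monocytes of virgin female B6CASTF1/J mice aged 2 months, F1 hybrids between C57BL/6J and CAST/EiJ. They are biological replicates 1, 2 and 4 in the labels, which name no treatment and give the same donor identifier for all 3. They form 1 group with no control, so the values below are descriptions over 3 libraries, and their spread may be technical.

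Chemokine genes are textbook examples of inducible genes. They are transcribed at a low rate in resting cells and rise quickly when pattern recognition or cytokine receptors signal through factors such as NF-kB and the interferon-regulated factors. Many lie in clusters that arose by gene duplication, with promoters poor in CpG dinucleotides. Distal elements can act on them over long distances, and elements are often shared between neighbouring genes of a cluster.

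The members lie in 5 loci (mm10). On chromosome 11 Ccl2 (82035571 to 82037453) and Ccl7 (82045712 to 82047525) are neighbours on the plus strand. A larger cluster on the same chromosome holds Ccl5 (83525778 to 83530518), Ccl9 (83572919 to 83578636), Ccl6 (83587882 to 83593087) and Ccl3 (83647844 to 83649355) on the minus strand and Ccl4 (83662584 to 83664683) on the plus strand. Cxcl16 (70453983 to 70459984, minus strand) lies apart on chromosome 11. On chromosome 5, Cxcl2 (90903871 to 90905938) is on the plus strand and Cxcl10 (92346638 to 92348889) on the minus strand, inside the span of the oppositely oriented gene Art3.

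The sequences below carry the main contrasts among these genes: a tall distal site with several matched motifs, 3 open promoters with different motif content, and the promoter of Ccl5, which had a low peak in 1 library. They are reference letters of GRCm38.p6 from RefSeq, written 5′ to 3′ on the strand of the gene, and the CAST/EiJ allele was not examined. Capitals mark every match to a motif searched for. In the Ccl2 distal site, chr11:82006900-82007160 on the plus strand, the capitals are in order an NF-kB, a C/EBP (TTGCNNAA), a PU.1-type ETS (GAGGAAG, here on the opposite strand) and an AP-1 (TGANTCA) match.
Ccl2 distal site: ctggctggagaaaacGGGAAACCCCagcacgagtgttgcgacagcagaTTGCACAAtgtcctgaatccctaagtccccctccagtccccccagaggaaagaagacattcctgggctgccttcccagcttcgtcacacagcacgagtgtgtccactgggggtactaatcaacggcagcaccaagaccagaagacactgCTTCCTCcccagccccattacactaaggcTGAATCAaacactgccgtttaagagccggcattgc
In the Ccl2 promoter, chr11:82035421-82035599 on the plus strand, the capitals are a PU.1-type match that lies just past the TSS.
Ccl2 promoter: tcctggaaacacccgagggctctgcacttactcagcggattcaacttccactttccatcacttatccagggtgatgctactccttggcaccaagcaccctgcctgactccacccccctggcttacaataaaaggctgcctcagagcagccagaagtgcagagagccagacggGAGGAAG
In the Cxcl2 promoter, chr5:90903641-90903870 on the plus strand, the capitals are a pair of NF-kB matches on opposite strands that overlap except for their outer bases.
Cxcl2 promoter: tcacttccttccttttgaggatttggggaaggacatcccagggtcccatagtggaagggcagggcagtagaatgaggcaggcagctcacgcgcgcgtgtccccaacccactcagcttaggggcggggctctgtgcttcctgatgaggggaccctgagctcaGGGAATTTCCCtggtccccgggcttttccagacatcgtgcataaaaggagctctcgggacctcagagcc
In the Cxcl10 promoter, chr5:92348890-92349109 on the minus strand, the capitals are in order an interferon-stimulated response element (ISRE, here a repeat of GAAA with 2 free bases between), 2 NF-kB matches and an AP-1 match.
Cxcl10 promoter: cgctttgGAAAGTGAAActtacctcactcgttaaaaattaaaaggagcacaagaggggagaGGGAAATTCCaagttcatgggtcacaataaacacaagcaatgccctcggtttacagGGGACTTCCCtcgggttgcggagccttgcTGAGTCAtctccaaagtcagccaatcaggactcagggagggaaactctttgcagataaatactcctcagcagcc
In the Ccl5 promoter, chr11:83530519-83530668 on the minus strand, the capitals are in order an IRF match (GAANNGAA), an NF-kB match, a PU.1-type match, each on the opposite strand, and a TATA box (TATAAA).
Ccl5 promoter: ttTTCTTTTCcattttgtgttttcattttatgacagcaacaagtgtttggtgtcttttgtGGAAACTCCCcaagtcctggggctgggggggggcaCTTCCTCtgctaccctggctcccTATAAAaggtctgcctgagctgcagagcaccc

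The libraries held 54046, 42657 and 48980 peaks in replicates 1, 2 and 4, and 144028, 107955 and 119597 footprints, which are short protected stretches inside open chromatin. Each peak carries a height, the authors' cleavage density, whose scale is not stated, and the number of reads behind it is not given in the sources used here. Over regions found in all libraries, heights of replicates 1 and 4 were 1.20 and 1.42 times those of replicate 2 (medians), so heights were ranked within a library. Of 8 monocyte marker genes 4 (Csf1r, Cx3cr1, Itgam and Spi1) were open at the promoter in every library, and Ccr2, the receptor of classical monocytes, in none. The count was 0 of 5 T cell, 0 of 6 natural killer cell and 0 of 5 B cell markers. It was 2 of 6 for neutrophils (Csf3r and S100a8), 1 of 5 for megakaryocytes and platelets (Pf4), 2 of 5 for tissue macrophages (Adgre1 and Mertk) and 2 of 4 for dendritic cells (Flt3 and Zbtb46). Beside these counts, 50.5% of all 21851 protein-coding genes were open at the promoter in every library. That share was lower among genes with CpG-poor promoters, as given below. The marker counts were not tested.

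A promoter peak, a peak within 1 kb of a TSS of the gene, was found in all 3 libraries for 6 of the 10 genes: Ccl2, Ccl9, Ccl3, Cxcl2, Cxcl10 and Cxcl16. Over all protein-coding genes the share was 50.5% (11029 of 21851). The members' promoters are poor in CpG, with a median observed over expected CpG ratio of 0.160 within 500 bp of the TSS against 0.571 for all genes. Cxcl16 stands apart at 0.607, and the other 9 lie between 0.0855 (Ccl7) and 0.401 (Cxcl10). Among the 11638 genes with a ratio up to that of Cxcl16, the share was 23.4%, and among the 8440 with a ratio up to that of Cxcl10 it was 12.7%, beside 5 of the 9 members in that range. Ccl6 had a promoter peak in replicates 1 and 4, Ccl4 in replicates 1 and 2 at different places, and Ccl5 in replicate 1. Ccl7 had none in any library. By library, 9, 7 and 7 of the members had a promoter peak in replicates 1, 2 and 4.

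**Figure D1:**
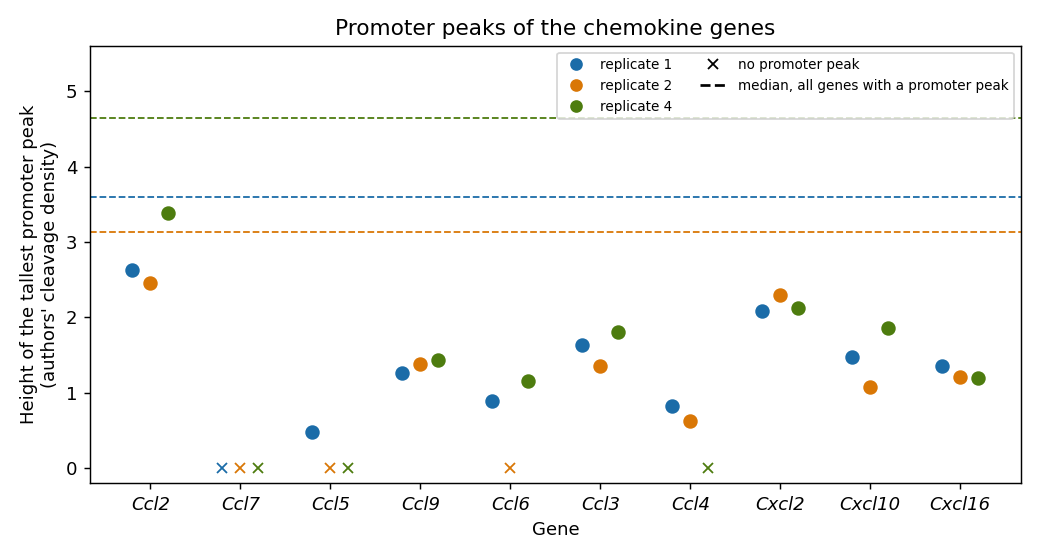
Height of the tallest promoter peak (authors' cleavage density, linear axis) for each gene in replicates 1, 2 and 4, with crosses at 0 for no promoter peak and dashed lines at each library's median over all genes with a promoter peak (3.60, 3.13 and 4.65). Each point lies below its library's dashed line, and Ccl2 is the highest at 2.46 to 3.39.

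Ccl2 and Ccl7 encode ligands of the receptor CCR2, which draws monocytes out of the bone marrow and into tissue. They had the sharpest contrast among the neighbours. The Ccl2 promoter peak had a height of 2.63, 2.46 and 3.39 in replicates 1, 2 and 4 (2.83 ± 0.497, SD, n = 3), at percentiles 38.5, 40.3 and 38.6 of all genes' tallest promoter peaks. It had the same boundaries in all 3 libraries, from 150 bp upstream to 69 bp downstream of the TSS. A footprint place of 24 bp (82035522 to 82035545) was shared by all libraries, and the PU.1-type match in capitals lay under a peak in each but within 5 bp of a footprint in none. At Ccl7, 10.2 kb from the Ccl2 peak, no base within 1 kb of the TSS was listed in the authors' table of false discovery rates (FDR) under 0.05. Of the 9630 genes with no promoter peak in any library, 1.83%, 1.05% and 1.07% had such a base in replicates 1, 2 and 4. The promoter of Ccl7 holds a TATA box 30 to 25 bp upstream of the TSS, an AP-1 match and an IRF match, none of them under a peak.

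Ccl3, Ccl4 and Ccl5 encode inflammatory chemokines that recruit T cells, natural killer cells and macrophages. Ccl3 was open in all libraries, with heights of 1.64, 1.35 and 1.81 (1.60 ± 0.233, SD, n = 3) and percentiles of 25.3, 22.0 and 22.7. Its peaks are the widest of the members, 660, 580 and 580 bp, reach 525 or 505 bp upstream of the TSS, and overlap a second, shorter peak call in each library. An RUNX match (TGTGGT) 145 to 140 bp upstream lay under a peak in 3 libraries and near a footprint in 1. Ccl4 had a low peak upstream of its TSS in replicate 1 (0.825, from 286 to 101 bp upstream). It also had a region about 1.09 kb downstream that was found in all libraries (0.701, 0.630 and 0.941) but reached the 1 kb window in replicate 2 alone. No base within 1 kb of the TSS of Ccl4 was listed under the FDR limit in replicate 4. Ccl5 had a peak of 67 bp with a height of 0.478 in replicate 1, at percentile 3.15 of gene promoters. The lowest FDR there was 0.0242, and replicates 2 and 4 had no listed base within 1 kb. The peak covers the TATA box 32 to 27 bp upstream and the PU.1-type match in capitals, and the NF-kB match of Ccl5, 90 to 81 bp upstream, was under a peak in 0 libraries. Where a promoter peak is missing, accessibility was not detectable in these peak lists, which does not show closed chromatin.

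Ccl9 and Ccl6 encode ligands of CCR1 that rodent myeloid cells produce. The Ccl9 peak had heights of 1.26, 1.38 and 1.44 (1.36 ± 0.0894, SD, n = 3) at percentiles 19.2, 22.6 and 18.1. It lay over the start of the gene and downstream of it, ending 255 or 275 bp past the TSS. The NF-kB, AP-1 and TATA box matches of Ccl9, all upstream of the TSS, were outside the peaks of every library. Ccl6 had heights of 0.891 and 1.15 in replicates 1 and 4 and no listed base in replicate 2. No motif searched for was found in its promoter window.

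The CXC genes differ in role and in promoter shape. Cxcl2, which attracts neutrophils through CXCR2, had heights of 2.09, 2.29 and 2.13 (2.17 ± 0.106, SD, n = 3) and percentiles of 31.6, 37.9 and 26.1. The paired NF-kB matches, 69 to 59 bp upstream, lay under the peak in all libraries. A footprint at 90903799 to 90903806 touched them in replicates 2 and 4, and a footprint at 90903813 to 90903823, next to their last base, was called in replicate 1. A footprint place with no searched motif, 90903752 to 90903775, was common to all 3. Cxcl10, an interferon-induced ligand of CXCR3 on activated T cells, had heights of 1.48, 1.07 and 1.86 (1.47 ± 0.392, SD, n = 3) at percentiles 23, 16.3 and 23.3. Its NF-kB matches, 103 to 94 and 159 to 150 bp upstream, were under a peak in all libraries and near a footprint in 0. The AP-1 match of Cxcl10, 74 to 68 bp upstream, was near a footprint in 2 libraries. The ISRE, 213 to 204 bp upstream, was outside the peaks, which began 191, 171 and 171 bp upstream. Cxcl16, a membrane-anchored ligand of CXCR6 that also acts as a scavenger receptor, had heights of 1.36, 1.21 and 1.19 (1.25 ± 0.0927, SD, n = 3) at percentiles 21, 19.4 and 14.5. Its peaks lay downstream of the TSS, between 64 and 363 bp, and also within 1 kb of a TSS of Zmynd15, which starts inside Cxcl16 on the opposite strand. They were annotated to exons of both genes and counted for both.

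All 6 promoters were lower than the median gene promoter of each library (3.60, 3.13 and 4.65). The median percentile of the 6 was 23.1 ± 0.958 (SD, n = 3 libraries). Beside genes with a CpG ratio up to 0.401, whose median tallest promoter peak was 1.31, 1.25 and 1.58, Ccl2, Ccl3 and Cxcl2 were higher in 3 of 3 libraries, Cxcl10 in 2 and Ccl9 in 1. Cxcl16 was below the median of genes up to its own CpG ratio (1.78, 1.63 and 2.22) in each library.

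**Figure D2:**
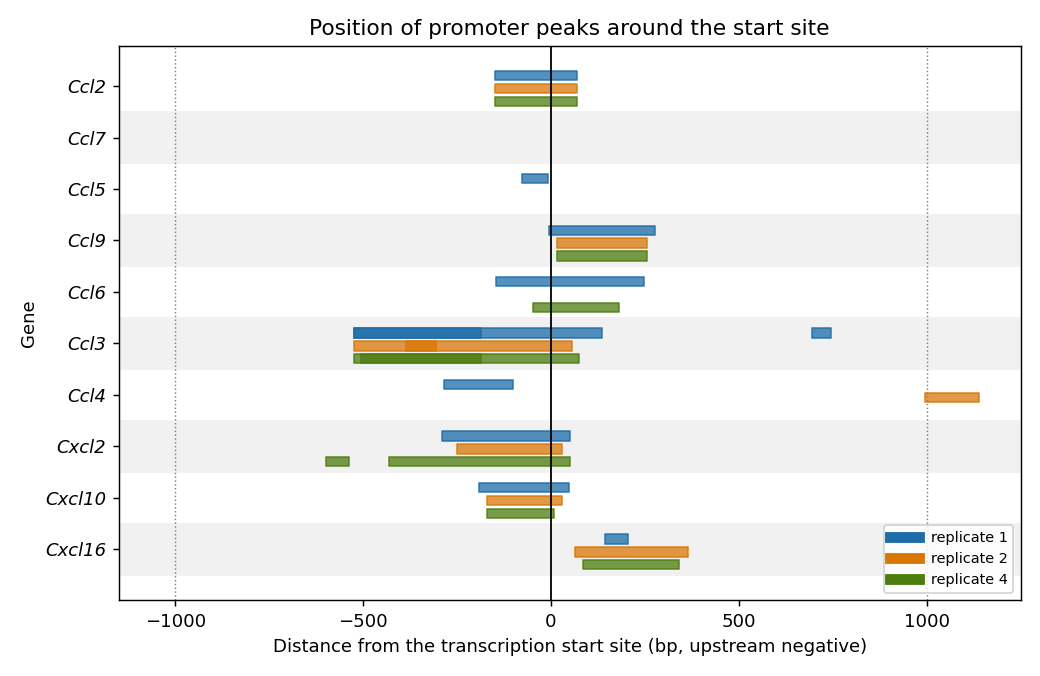
Extent of each promoter peak relative to the most upstream TSS (bp, upstream negative) for the 10 genes, a bar per peak coloured by replicate, with dotted lines at the 1 kb limits. The peaks of Ccl2 share their boundaries, those of Ccl9 and Cxcl16 lie at or past the TSS, and the peaks of Ccl4 in replicates 1 and 2 do not overlap.

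The promoter windows, from 250 bp upstream to 50 bp downstream of the TSS, were searched on both strands, and the share of all 21851 promoters with a match is given beside each count. NF-kB was found in 4 of the 10 members (Ccl5, Ccl9, Cxcl2 and Cxcl10) and 5.01% of promoters. IRF was found in 5 (18.5%), ISRE in 1 (3.57%), AP-1 in 3 (6.70%), PU.1-type ETS in 3 (13.3%), RUNX in 1 (15%), the TATA box in 4 (12.5%), and C/EBP (10.3%) and CTCF (0.549%) in 0. Among the 11638 promoters with a CpG ratio up to that of Cxcl16, most shares were higher. They were 4.90% for NF-kB, 22.1% for IRF, 4.54% for ISRE, 9.39% for AP-1 and 14.7% for PU.1-type ETS. For RUNX the share was 19.4%, for the TATA box 18.1%, for C/EBP 13.3% and for CTCF 0.430%. No matches to different motifs overlapped in these windows. A TATA box on the gene's strand 40 to 15 bp upstream of the TSS was found in 3 members, Ccl7, Ccl5 and Ccl4. It was found in 2.40% of all promoters and 3.88% of the 11638. These 3 genes are among the 4 without a promoter peak in all libraries. Only the exact letters TATAAA were searched for, so a variant TATA element in another promoter would not be counted. A match is a description of letters and shows no binding.

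All 10 genes had at least 1 distal peak in every library, a peak outside the promoter windows of all coding genes whose midpoint lay within 50 kb of the TSS. Over all protein-coding genes the share was 60.0% (13102 of 21851). The members had a mean of 8, 5.70 and 7.10 distal peaks in replicates 1, 2 and 4 (6.93 ± 1.16, SD, n = 3), against 2.68, 2.04 and 2.46 for all genes (2.40 ± 0.326). Ccl6 had 13, 6 and 10, the highest mean (9.67 ± 3.51), at percentile 97.4 of all genes. Ccl2 and Ccl7 shared theirs, 9, 9 and 8. Ccl9 had 10, 6 and 9, Cxcl16 had 8, 8 and 6, and Cxcl10 had 7, 5 and 10. Ccl5 had 6, 6 and 7, Ccl3 had 9, 3 and 6, and Ccl4 had 7, 3 and 5. Cxcl2 stood at the low end with 2 in each library, at percentile 56.9 of all genes.

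**Figure D3:**
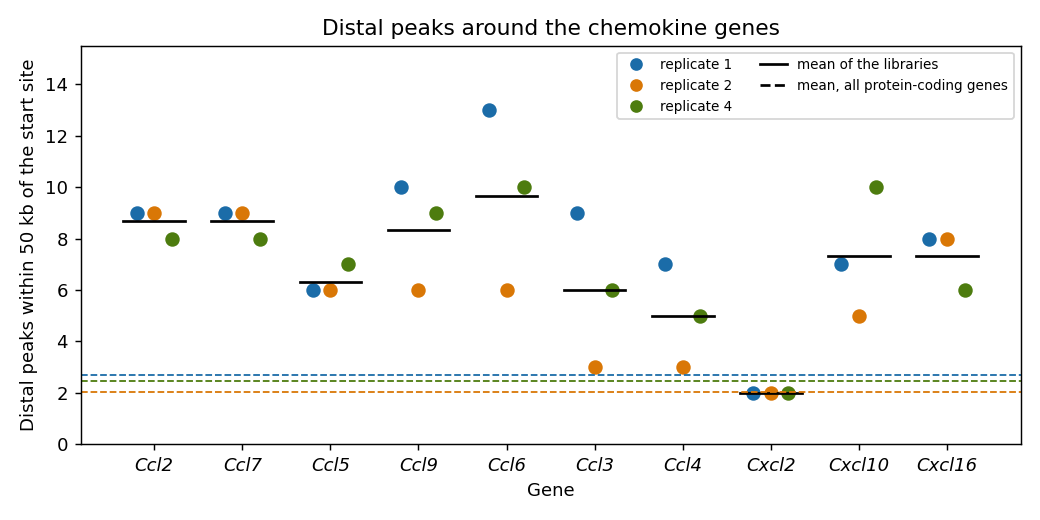
Number of distal peaks within 50 kb of the TSS for each gene in replicates 1, 2 and 4 (points), the mean over libraries (black bars) and the mean over all protein-coding genes (dashed lines at 2.68, 2.04 and 2.46). Cxcl2 lies at 2 in each library, and the points of the other 9 genes run from 3 to 13.

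Neighbouring members share windows, so each distinct peak call was also counted a single time per locus, which gave 42, 33 and 40 (38.3 ± 4.73, SD, n = 3). The locus of 5 genes from Ccl5 to Ccl4 held 16, 9 and 14 over 232 kb, and the Ccl2 and Ccl7 locus 9, 9 and 8 over 110 kb. Merged across libraries these gave 44 distal regions, of which 29 were found in 3 libraries, 10 in 2 and 5 in 1. That is 65.9% in all libraries, beside 48.1% of the 43164 distal regions of the genome. A region can hold more than 1 peak call of a library. At Cxcl10, replicate 4 had 10 distal calls, beside 9 distal regions merged across libraries. The Ccl2 and Ccl7 locus was the steadiest of those with more than 2 regions, with 8 of 9 found in all libraries. The cluster from Ccl5 to Ccl4 had 8 of 16, and 7 of its regions lacked a peak in replicate 2, the library with the fewest peaks. Of the 29, 18 were intergenic, 10 lay in introns (5 of Gm31522 and 4 of Art3) and 1 in an exon. Replicate 2 was lowest in 26 of them and replicate 4 highest in 17, the order of heights seen genome-wide.

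**Figure D4:**
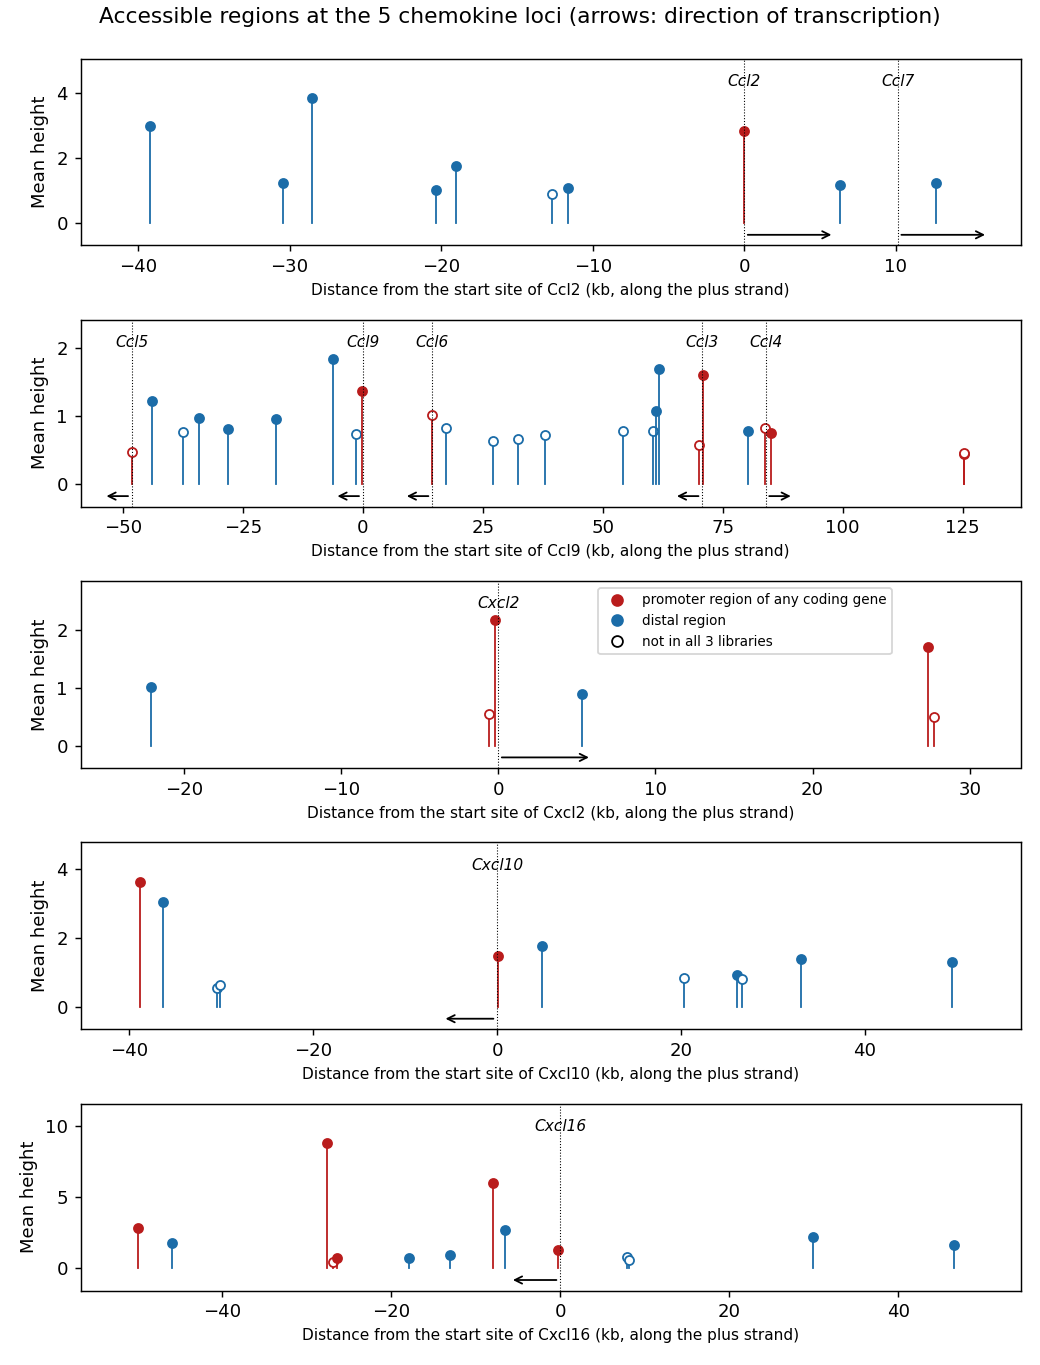
Mean height over the libraries with a peak (linear axis, authors' cleavage density) of each region at the loci. The horizontal axis is the distance in kb from the TSS of the named gene along the plus strand. Regions downstream of the minus-strand genes Cxcl10, Cxcl16 and Ccl9 therefore lie at negative values. Promoter regions of any coding gene are red and distal regions blue, with open circles for regions not found in all libraries. The tallest distal regions lie 28.5 kb upstream of Ccl2 (3.86) and 36.4 kb downstream of Cxcl10 (3.04), and the Ccl5 to Ccl4 cluster holds most of the open circles.

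The tallest distal region of all the loci lay 28.5 kb upstream of Ccl2 (82006861 to 82007220), in an intron of Gm31522, with heights of 4.06, 3.14 and 4.39 (3.86 ± 0.649, SD, n = 3). Its inner part is printed above. A footprint place of 42 bp at 82006920 to 82006961, shared by all libraries, touched both the NF-kB match (82006915 to 82006924) and the C/EBP match (82006948 to 82006955). Another shared footprint, 82007102 to 82007117, touched the PU.1-type match (82007097 to 82007103). The AP-1 match (82007126 to 82007132) had a footprint within 5 bp in 1 library. The next tallest of the Ccl2 locus lay 39.2 kb upstream in the same gene (3.06, 2.53 and 3.37), followed by regions 19.0 kb (1.94, 1.47 and 1.84) and 30.5 kb upstream (1.40, 0.887 and 1.45). Nearer to Ccl7, regions 3.81 kb upstream (1.32, 0.825 and 1.40) and 2.51 kb downstream (1.31, 1.08 and 1.30) of its TSS were open in all libraries while no promoter peak was called.

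In the cluster from Ccl5 to Ccl4 the tallest distal region lay 6.23 kb downstream of the TSS of Ccl9 (83572281 to 83572540), with heights of 2.14, 1.39 and 1.97. It fell within 50 kb of Ccl5, Ccl9 and Ccl6. A region 9.03 kb downstream of the TSS of Ccl3 (83640045 to 83640600) had 1.71, 1.84 and 1.51 and fell within 50 kb of Ccl6, Ccl3 and Ccl4. A region 4.26 kb upstream of Ccl5 had 1.17, 0.904 and 1.58, and a region 9.56 kb downstream of the TSS of Ccl3 had 1.16, 0.975 and 1.06. Distance alone does not assign a region to a gene.

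At Cxcl10 the tallest distal region lay 36.4 kb downstream of its TSS (92312401 to 92312620), with heights of 2.84, 2.13 and 4.13 and 3 footprint places shared by all libraries. It is nearer to the TSS of Sdad1, a gene with a tall promoter peak (3.29, 3.02 and 4.60), than to that of Cxcl10. The next tallest, in introns of Art3, lay 4.90 kb (1.85, 1.45 and 1.97), 33.1 kb (1.57, 0.949 and 1.61) and 49.5 kb upstream (1.38, 0.940 and 1.55). At Cxcl16 a region 6.47 kb downstream of the TSS, in an exon of the Mediator subunit gene Med11, had 2.71, 2.07 and 3.40. The next tallest of that locus lay 29.9 kb upstream (2.16, 1.73 and 2.65), 45.8 kb downstream (2.16, 1.39 and 1.73) and 46.6 kb upstream in an intron of Tm4sf5 (1.77, 1.23 and 1.96). Lower regions found in all libraries lay 13.1 kb (0.891, 0.745 and 1.21) and 17.9 kb downstream (0.668, 0.887 and 0.631). Cxcl2 had a region 22.1 kb upstream (0.792, 1.07 and 1.19), beyond its neighbour Cxcl1, and a region 5.30 kb downstream of its TSS (1.11, 0.789 and 0.792).

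The tallest distal region was taller than the promoter peak in all 3 libraries at Ccl2, Ccl9, Cxcl10 and Cxcl16. The coding TSS nearest to that region was that of Sdad1 at the Cxcl10 locus and that of Med11 at the Cxcl16 locus. At Cxcl10 the ratio of heights was 1.93, 1.98 and 2.23 (2.05 ± 0.159, SD, n = 3), and at Ccl2 it was 1.54, 1.28 and 1.30 (1.37 ± 0.148). At Cxcl16 it was 2.19 ± 0.602, and at Ccl9 1.36 ± 0.347 with 1.01 in replicate 2. Ccl3 was mixed, at 1.04, 1.36 and 0.836. Cxcl2 was the reverse of the others, with ratios of 0.379, 0.469 and 0.558 (0.469 ± 0.0893), so that its promoter was the taller in each library. The distal region is the tallest of several and the promoter peak of few, which favours ratios above 1, and no test was run on them.

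**Figure D5:**
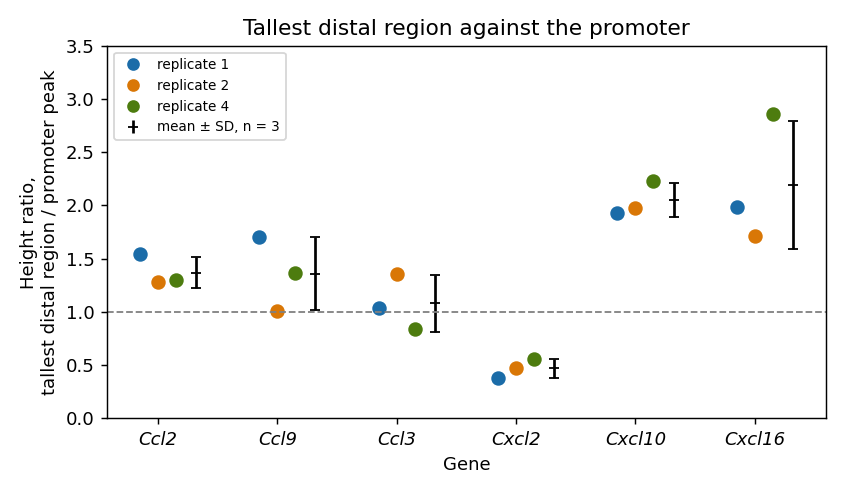
Ratio of the height of the tallest distal region within 50 kb to that of the tallest promoter peak, in replicates 1, 2 and 4 and as mean ± SD (n = 3), for the 6 genes with a promoter peak in all libraries, with a dashed line at 1. Cxcl2 lies below the line in each library, Ccl3 on both sides of it, and the other genes above it.

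Footprints within peaks of the 5 loci numbered 153, 115 and 125 (131 ± 19.7, SD, n = 3). Footprints over the regions merged across libraries, also where a library's own peak did not reach, fell at 268 distinct places. Of these places 166 were in distal and 102 in promoter regions, and 38 had a footprint in all libraries. The promoter regions include those of other genes in the windows, namely Pelp1, Arrb2, Med11, Mthfd2l and Sdad1. The promoter region of Med11 alone held 8 of the 38. Of the 29 distal regions found in all libraries, 25 had a footprint in each library and 17 had a place common to all. Extended by 5 bp on each side, 3 places held a match to the insulator factor CTCF, and all 3 were distal and common to all libraries. Over the genome 2.41%, 2.44% and 2.37% of footprints held it in replicates 1, 2 and 4. This share, like those of other motifs below, is of the footprints within peaks of a single library. The places are merged across libraries and include footprints outside a library's own peaks, so counts and shares are in unlike units. The CTCF matches lay 39.2 kb upstream of Ccl2 (81996355 to 81996366), 5.30 kb downstream of the TSS of Cxcl2 (90909176 to 90909187) and 33.1 kb upstream of Cxcl10 (92381969 to 92381980). They are shown in capitals with 8 flanking bases on each side, on the strand of the match.
Ccl2 CTCF match, chr11:81996347-81996374, plus strand: tatccaggCCACCAGGGGGCagcaaggc
Cxcl2 CTCF match, chr5:90909168-90909195, minus strand: gacagtggCCAGCAGGTGGCagacgagg
Cxcl10 CTCF match, chr5:92381961-92381988, minus strand: gccaatgaCCACCAGAGGGCagcaaaag
A further footprint common to all libraries, 45.8 kb downstream of the TSS of Cxcl16, held an RUNX match. By the same rule RUNX was held by 7 places in all, PU.1-type ETS by 6, IRF by 5 and NF-kB by 4. C/EBP was held by 2, AP-1 by 1, and ISRE and the TATA box by 0. A PU.1-type match in the Ccl2 distal site was counted at 2 neighbouring places. An NF-kB place lay in the promoter region of Med11. Over the genome RUNX was held by 1.59%, 1.40% and 1.36% of footprints in replicates 1, 2 and 4. PU.1-type ETS was held by 1.24%, 1.11% and 1.20%, IRF by 1.18%, 1.06% and 1.15%, and NF-kB by 0.314%, 0.298% and 0.311%. C/EBP was held by 0.796%, 0.768% and 0.718%, and AP-1 by 0.575%, 0.521% and 0.578%. For ISRE the shares were 0.196%, 0.170% and 0.196%, and for the TATA box 0.282%, 0.266% and 0.274%. Places common to all libraries numbered 1 each for RUNX, PU.1-type ETS, NF-kB and C/EBP, the last 3 in the Ccl2 distal site. The Cxcl2 NF-kB pair had a footprint within 5 bp in all 3 libraries, but not at a place common to them.

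Chemokine genes next to the members lacked promoter peaks. Ccl11, an eosinophil attractant 12.1 kb from Ccl7, Cxcl1, a neutrophil attractant 12.6 kb from Cxcl2, and Cxcl9, an interferon-induced gene 20.8 kb from Cxcl10, had no promoter peak in any library. Of 27 other chemokine ligand genes found in the annotation, 4 were open at the promoter in every library and 20 in no library, beside 6 and 1 of the 10 members. The 4 were Ccl24, Ccl25, Ccl27a and Pf4, with CpG ratios of 0.256, 1.08, 0.440 and 0.403. Among all 21851 protein-coding genes, 11029 were open in every library and 9630 in none. For genes with a CpG ratio up to 0.401, the share open in every library was 12.7%. The median CpG ratio was 0.233 for the 27 and 0.160 for the members. The whole list of 27 had a mean of 3, 2.11 and 2.81 distal peaks in replicates 1, 2 and 4. The members had 8, 5.70 and 7.10. Among receptor genes, Ccr1 and Cxcr3 were open at the promoter in every library. Ccr1, the receptor of Ccl9, Ccl6, Ccl3 and Ccl5, had heights of 0.915, 0.789 and 0.767 and 13, 10 and 12 distal peaks. The members share loci and were named for their interest in monocytes, so these lists are described and not tested against each other.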

How the data were processed

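DNase-seq of 3 libraries of mouse monocytes was analysed from peaks, footprints and FDR intervals that the authors called for each library from its own mm10 alignment, per the file headers and labels. Aligner, callers and versions were not given in the sources used here. The height of a peak is a signal of cleavage density as deposited, with no stated scale. The FDR was listed by the authors where under 0.05, and the deposited footprints carry a constant p-value that was not used. The longer of the 2 peak lists was used, and the shorter was an alternative.

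Genes came from GENCODE M21 basic (release 21) and sequence from GRCm38.p6. Promoter windows reached 1000 bp to each side of every protein-coding TSS, and distal windows 50000 bp. Regions merged peaks overlapping by 1 bp. Percentiles were taken within a library. Counts per gene were tested on simulated data. Python 3.11.15, NumPy 2.4.6, pandas 2.3.3 and matplotlib 3.10.9 were used. Members, gene lists and motifs were chosen with earlier results of these data known. Named genes were the members, chemokine genes within 50 kb of them, chemokine receptors (the list as a whole is not reported here), other chemokine ligands with a promoter peak in all libraries, up to 4 tallest shared distal regions per locus and the genes holding them. Neighbours at shared peaks, Ccr2 and smaller regions were named after their values were seen. Among the lists, Cxcl11 and Trac did not match.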

Additional observations from a re-analysis of the deposited data

How the results depend on the processing

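The 6 genes with a promoter peak in all libraries numbered 6 also in the shorter peak list, among the taller 50% of peaks, with a 500 bp window and with the most upstream TSS alone. The count was 7 with a 2 kb window, where Ccl4 joined, and 6 to 7 when each library was left out in turn. Levels depended on the list more than on any library. Distal peaks per member, 6.93, fell to 4.00 in the shorter list and 3.53 among the taller 50% of peaks, and were 3.63 within 25 kb and 11.3 within 100 kb. The means over all genes moved with them, to 1.59, 1.19, 1.21 and 4.70. The members thus had 2.89 times the mean of all genes in the longer list, and 2.52, 2.97, 3.01 and 2.41 times in these settings. A peak shared by neighbouring genes enters these means for each of them. Distal regions found in all libraries, 29, numbered 17 in the shorter list and 12 among taller peaks, and footprints within peaks, 131, numbered 100 and 97.7. The median percentile of the 6 promoters, 23.1, was 16.8 in the shorter list, 11.1 among taller peaks and 26.9 with the peak nearest to a TSS. The shorter list and the taller 50% hold fewer peaks by construction. With each library left out in turn, the ranges were 6.40 to 7.55 distal peaks, 30 to 36 regions, 120 to 139 footprints and percentiles 22.6 to 23.6. Ccl4 and Ccl5 had no promoter peak in the shorter list or among taller peaks, and Ccl6 kept 1 library. No paired analysis was possible because the libraries form a single group. Depth is unknown, so a peak absent from a library was not detectable rather than shown to be closed.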
